A study of Mus musculus with 8 samples.

Results

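The genes described here are the matrix metalloproteases (*Mmp*), the secreted ADAMTS proteases (*Adamts*) and the tissue inhibitors of metalloproteases (*Timp*), taken from an RNA-sequencing table of mouse liver progenitor cultures by their symbols. 46 of the 23467 genes with a unique symbol belonged to these families, 23 *Mmp*, 19 *Adamts* and 4 *Timp* genes. Hepatoblasts, the fetal progenitors of hepatocytes and of biliary epithelial cells (BECs), came from E14.5 fetal livers of mice of strain B6;129 mixed. They were grown on collagen (iHB), turned towards hepatocytes with Oncostatin M at 12.5 ng/ml for 5 days by the labels and 6 days by the methods (iHP), or turned towards BECs in Matrigel for 14 days (iBEC). Controls are labelled wild type, and L1L2_Alb stands for the label Lats1-/-;Lats2f/fl;Alb-cre, in which *Lats1* is knocked out in every cell of the animal and *Lats2*, the other LATS kinase that restrains the coactivators YAP and TAZ, is deleted by a Cre under the albumin promoter, hence in cells of the hepatoblast lineage. iHBs gave 1 control library and 1 labelled L1L2_Alb, and iHPs and iBECs each gave 1 control library and 2 labelled L1L2_Alb, 8 in all. It is not stated whether the libraries of 1 condition were made from separate embryos, so the spread between them may be technical. The p-values for genotype and stage measure this spread together with how far the genotype effect differed between stages. No control was replicated within a stage. The unit is RPKM, in which reads are divided by gene length and library size.

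MMPs cut collagens, proteoglycans and other proteins of the extracellular matrix, and release or shed growth factors and receptors at the cell surface. ADAMTS proteases trim procollagens and cut large proteoglycans, and TIMPs block the active site of MMPs and, in the case of TIMP3, of several ADAM and ADAMTS proteases. In the liver the balance of proteases and inhibitors sets how much matrix is laid down and removed during development, bile duct formation and fibrosis.

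Depth, recovered from the values, ran from 18436865 to 33229075 reads per library. *Lats1* was at 5.38 to 11.2 RPKM in controls and at 7.12 to 22.7 RPKM in the libraries labelled L1L2_Alb, and *Lats2* at 6.90 to 10.1 against 10.9 to 27.6 RPKM, with the ranges of *Lats1* overlapping. Against the control of its stage *Lats2* was higher in 5 of 5 labelled libraries and *Lats1* in 4, while iHP replicate 2 was lower in *Lats1* (7.12 RPKM, control 11.2 RPKM). The RNA levels of the targeted genes therefore do not check the label. Genotypes and the directions drawn from them are given by the label, and the 5 libraries labelled L1L2_Alb are called the labelled libraries. *Ctgf* and *Cyr61*, a pair of known YAP targets, were above the control of the stage in 5 of 5 labelled libraries, although the ranges of *Ctgf* over the stages overlapped (201 to 523 RPKM in controls, 412 to 2469 RPKM in the labelled libraries). *Alb* and 5 other hepatocyte genes summed to 7723 to 16545 RPKM in every library, while 6 endothelial genes summed to 2.901 to 23.7 RPKM. The hepatocyte sum joined genes that ran opposite ways, so it does not show even hepatocyte RNA. In iHBs *Apoa1* held 2451 RPKM (control) and 8670 RPKM (labelled), the latter out of a sum of 9402 RPKM. *Alb* held 2485 and 524 RPKM in the same libraries. Genes of other cells were present at levels that differed between libraries. 7 neutrophil genes summed to 3189 to 14511 RPKM in controls and to 43.8 to 4602 RPKM in the labelled libraries, and 7 mesenchymal genes to 229.7 to 1059 RPKM against 102 to 580.4 RPKM. In such bulk cultures fewer cells of a type and less RNA per cell cannot be told apart.

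10 *Mmp* genes lie next to one another on chromosome 9, and 8 of them share a promoter feature that the choice by symbol did not use. In the 250 bases before the start of the gene (RefSeq, GRCm38.p6, 35 windows for 32 of the 46 genes), the AP-1 element TGANTCA, which reads the same on both strands, was found in 8 of 35 windows (22.9%) against 6.75% of all 32851 windows. All 8 belong to the row of 10 neighbours, in which *Mmp8* and *Mmp27* had no match, and none to the other 22 genes with a window. *Mmp12* and *Mmp7* each had a further window, for another start, without a match (chr9:7344147-7344396 and chr9:7692091-7692340). The stretches are shown in the order of the genes on the chromosome, since they hold a pattern common to neighbours whose RNA levels were far apart. Capitals mark the AP-1 letters, with 20 bases on either side, and the match starts between 95 and 35 bases before the start of the gene.
*Mmp13* (chr9:7272459-7272505, plus strand): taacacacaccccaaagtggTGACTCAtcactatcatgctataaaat
*Mmp12* (chr9:7347310-7347356, plus strand): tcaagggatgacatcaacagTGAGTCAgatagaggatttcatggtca
*Mmp1b* (chr9:7388093-7388139, minus strand): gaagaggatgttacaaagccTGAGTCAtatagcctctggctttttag
*Mmp3* (chr9:7445756-7445802, plus strand): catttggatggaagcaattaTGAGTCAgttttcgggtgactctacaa
*Mmp1a* (chr9:7464048-7464094, plus strand): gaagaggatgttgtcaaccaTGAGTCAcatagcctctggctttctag
*Mmp10* (chr9:7502259-7502305, plus strand): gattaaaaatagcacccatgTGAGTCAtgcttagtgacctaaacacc
*Mmp20* (chr9:7628116-7628162, plus strand): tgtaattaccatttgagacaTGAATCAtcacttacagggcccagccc
*Mmp7* (chr9:7692007-7692053, plus strand): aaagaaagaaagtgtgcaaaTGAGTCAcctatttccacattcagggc

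The TEAD element GGAATG, the site through which YAP and TAZ act, was searched on both strands and found in 2 of the 35 windows (5.71%), against 12.6% of all windows. The windows of the 3 inhibitors that carry most of the values are shown next, as *Timp2* was the gene that passed the test and *Timp1* held the highest level. Capitals mark a TEAD match, which starts 247 bases before *Timp1*. No AP-1 letters occur in them and none overlap the TEAD match, and the windows of *Timp2* and *Timp3* held neither motif, which says only that these letters are not in these windows.
*Timp1* (chrX:20869916-20870165, plus strand): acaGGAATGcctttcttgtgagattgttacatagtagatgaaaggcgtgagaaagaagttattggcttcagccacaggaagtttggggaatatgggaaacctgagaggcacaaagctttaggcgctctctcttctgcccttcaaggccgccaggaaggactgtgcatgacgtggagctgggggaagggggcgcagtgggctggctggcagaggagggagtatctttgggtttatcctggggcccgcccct
*Timp2* (chr11:118355412-118355661, minus strand): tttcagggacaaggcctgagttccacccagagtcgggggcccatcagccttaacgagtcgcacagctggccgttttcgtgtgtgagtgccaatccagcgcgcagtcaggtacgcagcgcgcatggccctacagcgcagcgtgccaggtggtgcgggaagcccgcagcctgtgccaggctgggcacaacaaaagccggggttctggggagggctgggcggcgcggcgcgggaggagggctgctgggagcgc
*Timp3* (chr10:86300162-86300411, plus strand): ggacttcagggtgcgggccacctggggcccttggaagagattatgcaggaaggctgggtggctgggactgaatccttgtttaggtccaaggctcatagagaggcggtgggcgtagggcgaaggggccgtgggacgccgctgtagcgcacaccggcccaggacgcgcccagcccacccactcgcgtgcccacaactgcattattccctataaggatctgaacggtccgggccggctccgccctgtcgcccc

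25 of the 46 genes (14 *Mmp*, 8 *Adamts*, 3 *Timp*) averaged 1 RPKM or more and were tested. 12 of them had a mean of 10 RPKM or more. Of the 21 others, 8 reached 1 RPKM in some library and 13 stayed under it in all. The highest value among these 13 was 0.813 RPKM (*Adamts3*), and *Adamts18* was at 0 in every library. 32 genes were above 0 in all 8 libraries. The map of levels shows that a few genes carry each family.

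**Figure D1:**
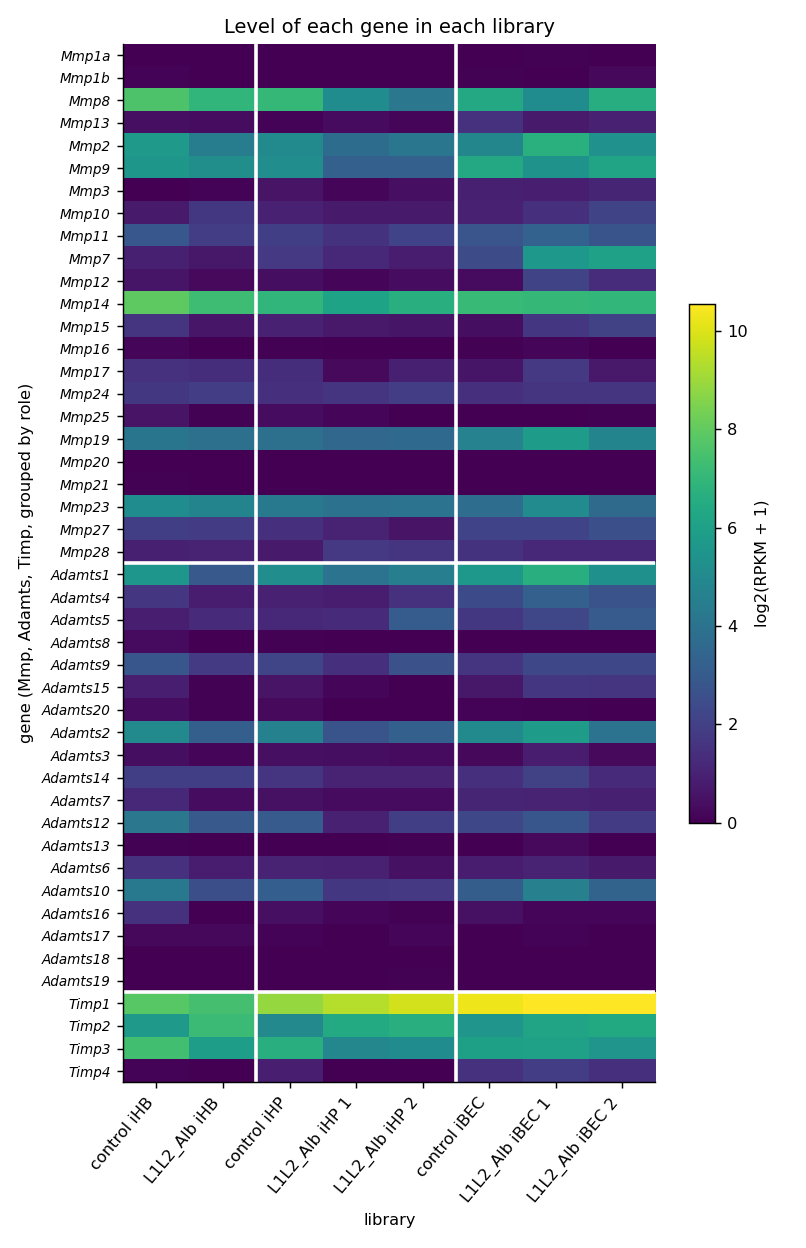
Level of each of the 46 genes (rows, grouped as *Mmp*, *Adamts* and *Timp*) in the 8 libraries (columns) as log2(RPKM + 1), with 1 cell per gene and library. *Timp1* is the brightest row and is highest in iBECs, *Mmp14*, *Mmp8* and *Mmp9* lead the MMPs, and most other rows are dark throughout.

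Among the inhibitors, *Timp1*, a secreted inhibitor of most MMPs that also acts as a growth factor, had the highest level of the 46 genes in 7 of the 8 libraries, and in the control iHB it was second to *Mmp14*. Its RPKM was 224 (control) and 171 (labelled) in iHBs, 469 (control), 661 and 909 (labelled) in iHPs, and 1268 (control), 1507 and 1494 (labelled) in iBECs. All 3 iBEC libraries were above all 3 iHP libraries, and these above both iHB libraries. The stage difference passed the test between iBECs and iHBs (log2 fold change 2.81, SE 0.303, adjusted p = 0.00218 from limma) and was not called between iBECs and iHPs (1.11, adjusted p = 0.0613 from limma) or between iHPs and iHBs (1.70, adjusted p = 0.182 from limma). Over the stages together the genotypes differed by 0.25 on the log2 scale (SE 0.243, adjusted p = 0.582 from limma), with 4 of 5 labelled libraries above their control. *Timp1* made up 45.2 to 51.2% of the summed *Timp* level in iHBs, 78.4 to 87.2% in iHPs and 91.5 to 92.0% in iBECs.

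*Timp2*, an inhibitor that also takes part in the activation of proMMP2 by MMP14 at the cell surface, rose in the labelled libraries. Controls held 49.2 RPKM as iHBs, 30.6 RPKM as iHPs and 44.2 RPKM as iBECs. The labelled iHB library held 147 RPKM, those of iHPs 85.5 and 99.0 RPKM, and those of iBECs 71.5 and 83.9 RPKM. The lowest labelled library was above the highest control. Against the control of its stage the ratio was 2.98 for iHBs, 2.79 and 3.23 in iHPs, and 1.62 and 1.90 in iBECs, lower in iBECs although the difference between stages did not pass its test (adjusted p = 0.9999 from limma). Across the stages the log2 fold change was 1.28 (SE 0.20, adjusted p = 0.00882 from limma, higher in 5 of 5). It was the only one of the 25 genes called (4%), where 9.57% of all genes tested were called, 6.2% higher and 3.37% lower. The call was lost without iHBs (1.18, adjusted p = 0.0626 from limma) and without iHPs (1.12, adjusted p = 0.0964 from limma).

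*Timp3*, the inhibitor that binds the matrix and also blocks ADAM17 and aggrecanases, had values that ran the other way in iHBs and iHPs. It stood at 164 RPKM in the iHB control and 60.3 RPKM in the labelled library. The iHP control held 97.9 RPKM and the labelled pair 28.3 and 34.2 RPKM. The iBEC control held 63.6 RPKM, between the 65.6 and 44.1 RPKM of the labelled pair. The fit across stages gave a log2 fold change of -1.07 (SE 0.286, adjusted p = 0.054 from limma, lower in 4 of 5). *Timp3* passed the threshold with upper-quartile scaling (-1.15, adjusted p = 0.036 from limma), while 12 of 17 alternatives left it uncalled. Without iBEC replicate 1, the only labelled library above its control, the value was -1.23. *Timp1* and *Timp3* lie within *Syn1* and *Syn3* on the opposite strand (GENCODE M21), and *Timp3* also shares exon positions with *Syn3*. *Adamts4*, *Adamts7*, *Adamts8*, *Adamts9*, *Mmp1b*, *Mmp7*, *Mmp11*, *Mmp12*, *Mmp19*, *Mmp24*, *Mmp28* and *Timp4* likewise share exon positions with a gene on the opposite strand. Reads of such pairs cannot be told apart without strand, whose use is not stated. *Timp4* reached 1.83 RPKM in the iBEC control and 2.76 and 1.66 RPKM in the labelled pair. In iHPs it had 34 reads in the control and 0 in both other libraries, hence at least 7.46-fold and 8.63-fold lower against a floor of 3 reads per library. These *Timp4* values have no test.

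**Figure D2:**
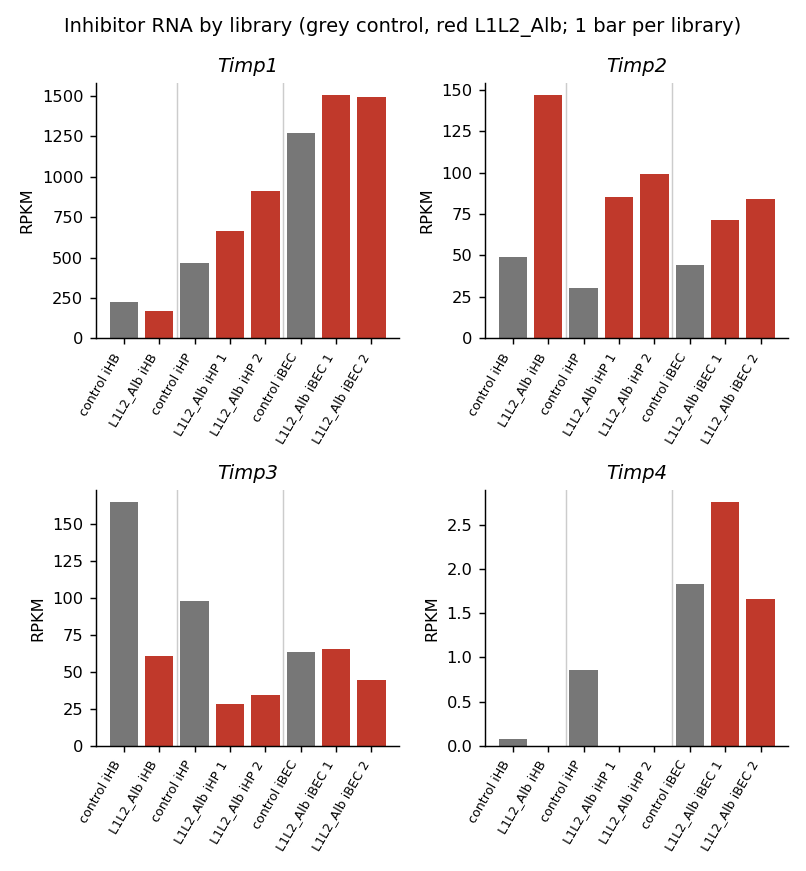
RPKM (linear axis from 0) of the 4 *Timp* genes, with 1 bar per library, control in grey and L1L2_Alb in red, and stages separated by lines. *Timp1* climbs from iHBs to iBECs in both genotypes, every red *Timp2* bar is above every grey one, and *Timp3* is lower in the red iHB and iHP bars (60.3, 28.3 and 34.2 RPKM) than in their controls.

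Collagenases and gelatinases were represented by *Mmp8*, *Mmp9* and *Mmp2*. *Mmp8*, the neutrophil collagenase, had control levels of 195, 130.1 and 82.6 RPKM in iHBs, iHPs and iBECs. Labelled libraries held 123 RPKM in iHBs, 34.1 and 17.0 RPKM in iHPs, and 33.9 and 93.9 RPKM in iBECs, which is below the control in 4 of 5 cases and above it in replicate 2 of the iBECs. The fit gave -1.24 on the log2 scale (SE 0.458, adjusted p = 0.129 from limma). *Mmp9*, gelatinase B, which is stored in neutrophil granules and also made by macrophages, had control levels of 47.0, 35.3 and 81.4 RPKM. The labelled libraries held 36.7 RPKM in iHBs, 8.54 and 8.46 RPKM in iHPs, and 41.0 and 71.2 RPKM in iBECs, below the control in 5 of 5. Its log2 fold change was -1.01 (SE 0.318, adjusted p = 0.085 from limma), and it passed the threshold with quantile normalization (-1.13, adjusted p = 0.0485 from limma). Of 17 alternatives, 15 left *Mmp9* uncalled.

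The summed level of neutrophil genes was also below the control of the stage in 5 of 5 labelled libraries, but its order over the libraries was not that of *Mmp9*. All 7 neutrophil markers had lower estimates in the labelled libraries (median log2 fold change -3.62), and 0 were called by limma while 7 had an unadjusted p under 0.05 (26.3% of all genes had one). Their sum was 14511, 9844 and 3189 RPKM in the controls of the 3 stages, beside 4602 RPKM in the labelled iHB library, 458 and 43.8 RPKM in those of iHPs, and 105 and 2576 RPKM in those of iBECs. In iHP replicate 2, in which *Mmp8* was at 17.0 RPKM, *S100a8* and *S100a9* were at 18.3 and 24.1 RPKM. *Mpo*, *Ngp*, *Camp* and *Ltf* were at 0.157 to 0.566 RPKM there, and *Elane*, the neutrophil elastase gene, was at 0. The iBEC library with few neutrophil transcripts was also the one with the lower *Mmp8* and *Mmp9*. Among controls, however, *Mmp9* was highest in iBECs (81.4 RPKM), where the neutrophil sum was lowest. The labelled iBEC replicate 1 held more *Mmp9* (41.0 RPKM) than the iHP control (35.3 RPKM), with a sum of 105 against 9844 RPKM. Labelled iBEC replicate 2 held more *Mmp8* than its control with a lower sum, but that sum joined genes that ran opposite ways. *Ngp* (195 RPKM, control 151 RPKM), *Camp* (34.5 RPKM, control 27.9 RPKM) and *Ltf* (43.3 RPKM, control 27.6 RPKM) were above the control there, as *Mmp8* was. *S100a8*, *S100a9*, *Elane* and *Mpo* were below it. The part of neutrophils in the *Mmp8* and *Mmp9* values was not tested.

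*Mmp2*, gelatinase A, a protease of mesenchymal cells, had control levels of 51.4 RPKM in iHBs and 31.3 RPKM in iHPs, where the labelled libraries held 20.9 RPKM, and 12.3 and 16.5 RPKM. The iBEC control held 28.1 RPKM and the labelled pair 102 and 39.0 RPKM. It was thus lower in all 3 iHB and iHP libraries and higher in both of iBECs, and replicate 1 held 2.61 times the level of replicate 2. The fit across stages gave -0.32 (SE 0.486, adjusted p = 0.732 from limma), a sign that turned without iHBs (0.027) or without iHPs (0.11). Without iBECs the value was -1.16 (adjusted p = 0.0352 from limma). *Mmp13*, collagenase 3, was highest in iBECs, at 1.82 (control), 0.693 and 0.941 RPKM (labelled), and lay between 0.0668 and 0.355 RPKM in the others. The interstitial collagenases *Mmp1a* and *Mmp1b* stayed at or under 0.168 RPKM.

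*Mmp7*, matrilysin, a small secreted protease of glandular and ductal epithelium, had the largest difference in a single stage among the 25 tested genes. The iBEC control held 4.28 RPKM (125 reads) and the labelled pair 48.4 and 65.0 RPKM (1100 and 1361 reads), 11.3 and 15.2 times as much. Elsewhere it was low in both genotypes, with 0.880 (control) and 0.595 RPKM in iHBs, and 2.40 (control), 1.30 and 0.802 RPKM in iHPs. As these directions were opposite, the fit over the stages gave 0.91 (SE 0.696, adjusted p = 0.46 from limma), and without iBECs -0.53. *Mmp7* had the smallest p of the members in the test of a genotype effect that differs between stages (adjusted p = 0.229 from limma). No gene of the 13421 passed it (background 0%, smallest adjusted p of 0.122 from limma), and 5 of the 25 genes (20%) had an unadjusted p under 0.05 in it where 5.46% of all genes did (4 of 24, or 16.7%, without *Mmp15*, which passed the filter only through the labelled iBEC pair). *Mmp12*, the macrophage elastase, had a similar order at lower levels, with 0.225 RPKM in the iBEC control, 3.535 and 1.5001 RPKM in the labelled pair and at most 0.497 RPKM in iHBs and iHPs. 5 macrophage genes summed to 1128 RPKM in the iBEC control and to 2476 and 2677 RPKM in the labelled pair, with 0 of 5 called across the stages by limma (background 9.57%), and their part in the *Mmp12* values was not tested.

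Among the membrane-type MMPs, *Mmp14*, the activator of proMMP2 and a pericellular collagenase, was the most abundant MMP in 7 of the 8 libraries, and in control iHP *Mmp8* was slightly above it. Control levels were 248, 124 and 143 RPKM in iHBs, iHPs and iBECs. The labelled iHB library held 156 RPKM, those of iHPs 68.8 and 100.1 RPKM, and those of iBECs 128 and 125 RPKM, all 5 below their controls and nearest to them in iBECs. The log2 fold change was -0.45 (SE 0.191, adjusted p = 0.176 from limma), and with quantile normalization -0.70 (adjusted p = 0.0317 from limma). Of 17 alternatives, 16 left *Mmp14* uncalled. *Mmp15*, another membrane-type protease, had 0.309 RPKM in the iBEC control and 2.19 and 3.12 RPKM in the labelled pair. In iHBs the values were 2.06 (control) and 0.578 RPKM, and in iHPs 0.952 (control), 0.672 and 0.526 RPKM, so that the direction in iBECs was opposite to that in the other stages (adjusted p = 0.541 from limma for a difference between stages). *Mmp24* was slightly higher in 5 of 5 libraries (1.68 to 2.25 RPKM in controls against 2.05 to 2.79 RPKM, log2 fold change 0.25, adjusted p = 0.484 from limma). *Mmp17*, which is anchored by a lipid tail, ranged from 0.218 to 2.36 RPKM with no common direction (-0.10, turning to 0.0082 with quantile normalization), and *Mmp16* and *Mmp25* stayed under 0.490 RPKM.

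Of the stromelysins (2 tested) and the other MMPs (4 tested), 0 were called by limma and 0 had an unadjusted p under 0.05, where 9.57% and 26.3% of all genes did. *Mmp11* ranged from 1.91 to 9.06 RPKM (log2 fold change -0.21). *Mmp10*, stromelysin 2, held 0.676 (control) and 2.30 RPKM in iHBs, 0.959 (control), 0.696 and 0.685 RPKM in iHPs, and 0.948 (control), 1.69 and 3.43 RPKM in iBECs (0.49, adjusted p = 0.347 from limma). Its controls averaged 0.861 RPKM, so that it passed the filter through the labelled libraries. *Mmp3* reached 1.12 RPKM in 1 iBEC library. *Mmp19*, a protease of epithelium and vessels, held 24.6 RPKM in the iBEC control, 56.6 and 26.3 RPKM in the labelled pair, and 10.3 to 16.2 RPKM in iHBs and iHPs. *Mmp23* had control levels of 34.5, 18.1 and 12.5 RPKM, with 25.9 RPKM in the labelled iHB library, 14.6 and 15.3 RPKM in those of iHPs, and 33.5 and 11.6 RPKM in those of iBECs. The genotype estimates of *Mmp19* (0.06) and *Mmp23* (0.02) turned negative with upper-quartile scaling (-0.021 and -0.055). *Mmp27* was at 0.453 to 4.89 RPKM (-0.17) and *Mmp28*, epilysin, at 0.710 to 2.36 RPKM (0.23). *Mmp28* was higher in both labelled iHP libraries (2.36 and 2.00 RPKM, control 0.710 RPKM) and lower in both of iBECs (1.24 and 1.31 RPKM, control 1.92 RPKM).

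**Figure D3:**
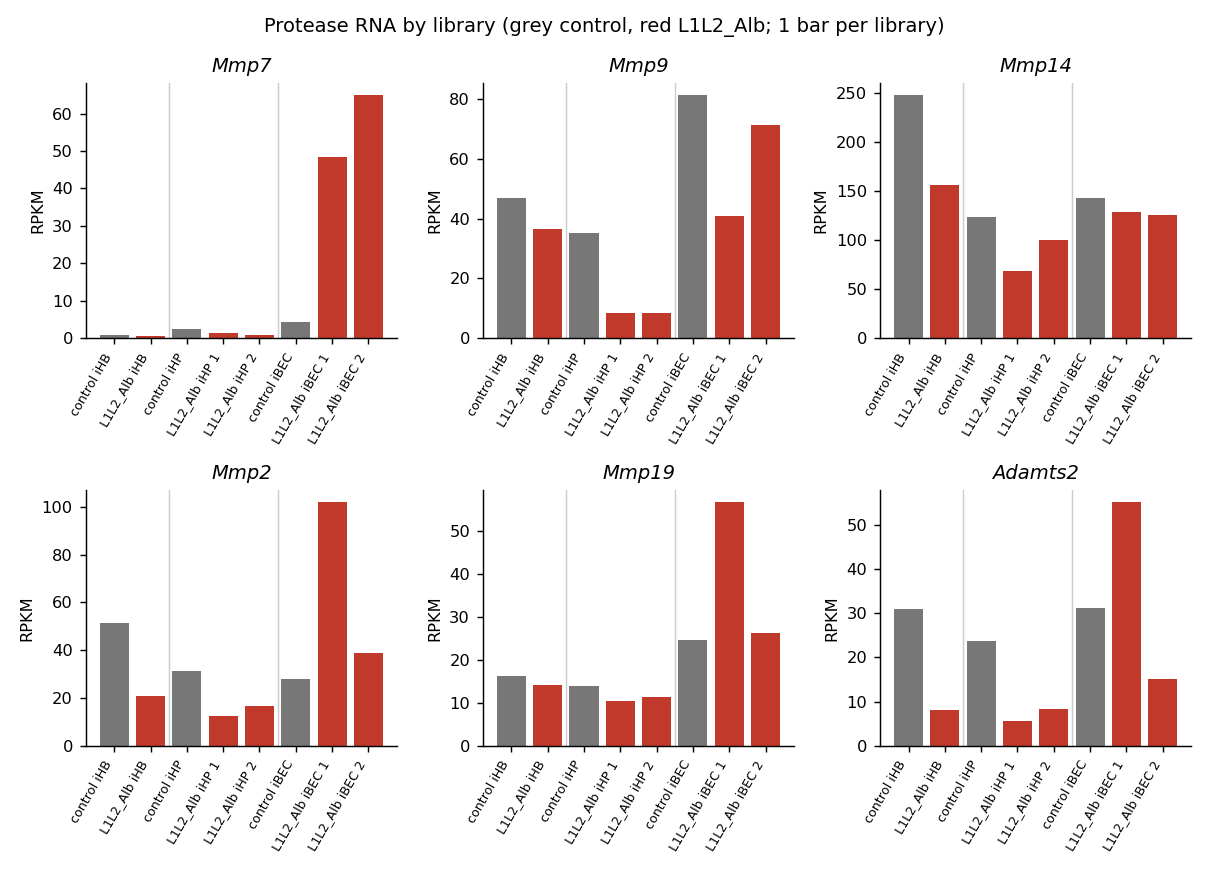
RPKM (linear axes from 0) of *Mmp7*, *Mmp9*, *Mmp14*, *Mmp2*, *Mmp19* and *Adamts2*, with 1 bar per library, control in grey and L1L2_Alb in red. The 2 red iBEC bars of *Mmp7* (48.4 and 65.0 RPKM) stand above every other bar of that gene, and *Mmp2*, *Mmp19* and *Adamts2* are highest in iBEC replicate 1.

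Of the 8 tested ADAMTS proteases, 4 (*Adamts1*, *Adamts2*, *Adamts10* and *Adamts12*) were below the control in all 3 labelled iHB and iHP libraries (50%, background 32.3%), and *Adamts5* was above it in all 3. In iBECs *Adamts4*, *Adamts5*, *Adamts9* and *Adamts10* were above the control in both libraries (50%, background 62.2%), and the other 4 had 1 library on either side. Over the 8 tested *Adamts* genes the log2 difference had a median of -1.15 for iHBs, -0.76 for iHPs and 0.46 for iBECs, beside -0.09, -0.01 and 0.25 over all genes tested. With upper-quartile scaling the median over all genes in iBECs was 0.02, a shift of the whole scale that applies to each iBEC difference given here. The summed level over all 19 *Adamts* genes was 132, 85.2 and 105 RPKM in the controls of the 3 stages, beside 35.3 RPKM in the labelled iHB library, 30.7 and 52.0 RPKM in those of iHPs, and 206 and 87.8 RPKM in those of iBECs. None was called across stages by limma (background 9.57%), and 1 of 8 had an unadjusted p under 0.05 (12.5%, background 26.3%).

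Of the procollagen N-proteinases, which remove the amino-terminal propeptide so that collagen can form fibrils, *Adamts2* held 30.97 RPKM in the iHB control and 8.06 RPKM in the labelled library. In iHPs it held 23.7 RPKM (control), 5.66 and 8.34 RPKM (labelled). The labelled iBEC libraries, at 55.1 and 15.1 RPKM, lay on either side of the control at 31.1 RPKM and were 3.65-fold apart. The log2 fold change was -1.13 (SE 0.461, adjusted p = 0.165 from limma), and 15 of 17 alternatives left *Adamts2* uncalled. Without iBEC replicate 1, the only labelled library above its control, the value was -1.502. With that library left out, only libraries below their control remained. *Adamts14* ranged from 1.01 to 3.15 RPKM (-0.14). *Adamts12*, which cuts cartilage oligomeric matrix protein, held 17.2 (control) and 6.69 RPKM (labelled) in iHBs, 7.16 (control), 0.931 and 2.87 RPKM in iHPs, and 3.90 (control), 6.00 and 2.68 RPKM in iBECs (-0.89 across stages, SE 0.395, adjusted p = 0.195 from limma). *Adamts7*, its close relative, held 1.35 RPKM in the iHB control, 0.280 RPKM in the labelled iHB library and 0.233 to 1.13 RPKM elsewhere.

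The proteoglycanases cut aggrecan and versican. *Adamts1* had control levels of 46.3, 35.4 and 48.8 RPKM, close to one another, and labelled levels of 6.71 RPKM in iHBs, 15.0 and 21.8 RPKM in iHPs, and 97.2 and 38.9 RPKM in iBECs. Its fit gave -0.93 (SE 0.499, adjusted p = 0.286 from limma, lower in 4 of 5). *Adamts5* was the member of this group with values higher in 5 of 5 libraries, with 0.841 (control) and 1.48 RPKM in iHBs, 1.31 (control), 1.40 and 7.33 RPKM in iHPs, and 2.28 (control), 3.79 and 7.09 RPKM in iBECs (0.80, SE 0.406, adjusted p = 0.262 from limma). *Adamts4* ranged from 0.783 to 8.55 RPKM (0.06, turning to -0.0096 with a pseudocount of 0.1) and *Adamts9* from 1.80 to 6.19 RPKM (-0.10). *Adamts15* held 0.604 (control), 2.17 and 2.02 RPKM (labelled) in iBECs and 0.824 (control) and 0.0353 RPKM in iHBs, without a test.

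*Adamts10*, which binds fibrillin microfibrils, had control levels of 18.4, 7.99 and 7.78 RPKM in iHBs, iHPs and iBECs. The labelled libraries held 4.74 RPKM, then 2.25 and 2.37 RPKM, and then 23.2 and 9.30 RPKM. It was lower in 3 of 3 iHB and iHP libraries and higher in 2 of 2 of iBECs (-0.70 across stages, SE 0.494, adjusted p = 0.425 from limma; without iBECs -1.58, adjusted p = 0.0172 from limma). *Adamts16* had 263 reads in control iHB (1.86 RPKM) and 0 in the labelled iHB library, at least 88.4-fold lower against a floor of 3 reads per library. This was 1 library of each genotype, with no replicate check, and *Adamts16* was at 0.381 RPKM or less in the other stages. *Adamts6* held 1.81 RPKM in the iHB control, 0.795 RPKM in the labelled one and 0.399 to 1.07 RPKM elsewhere.

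Mesenchymal genes differed between the same libraries. All 7 mesenchymal markers had lower estimates across the stages (median -1.003), with 0 called by limma (background 9.57%) and 3 at an unadjusted p under 0.05 (42.9%, background 26.3%). Their sum was 1059 (control) and 486 RPKM in iHBs, 613 (control), 102 and 193 RPKM in iHPs, and 229.7 (control), 580.4 and 196 RPKM in iBECs. iBEC replicate 1, which was high in *Mmp2*, *Mmp23*, *Adamts1*, *Adamts2* and *Adamts10*, also held 259 RPKM of *Lum*, a proteoglycan gene of fibroblasts, against 39.8 RPKM in replicate 2 and 52.3 RPKM in the control. None of the 7 markers was at 0 in any library. The part of mesenchymal cells in the *Timp3*, *Mmp2* and *Adamts* values was not tested.

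**Figure D4:**
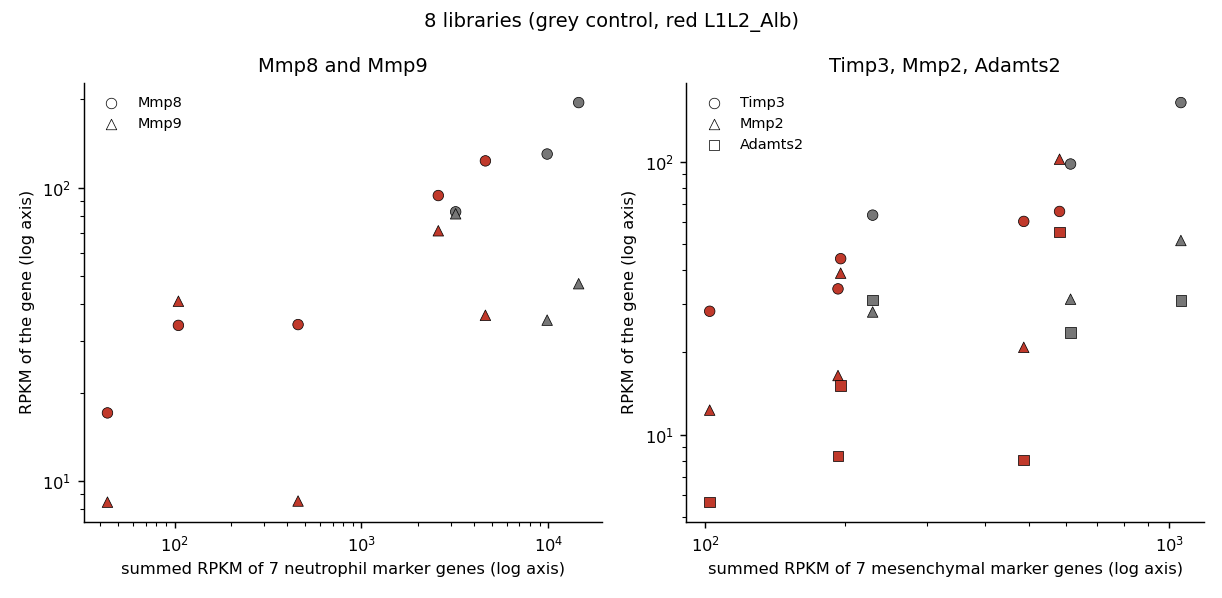
Left, RPKM of *Mmp8* and *Mmp9* against the summed RPKM of 7 neutrophil genes, and right, RPKM of *Timp3*, *Mmp2* and *Adamts2* against the summed RPKM of 7 mesenchymal genes, with 1 point per gene and library (control grey, L1L2_Alb red) and log axes. The lowest *Mmp8* level (17.0 RPKM) is in the library with the lowest neutrophil sum (43.8 RPKM), and the lowest *Timp3* level (28.3 RPKM) in that with the lowest mesenchymal sum (102 RPKM).

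Over the 25 tested genes, the genotype difference had a median of -0.10 across stages beside 0.06 over all genes, with 11 estimates above and 14 below 0. 6 genes (24%) had an unadjusted p under 0.05, where 26.3% of all genes did. 5 had the same direction in 5 of 5 libraries (*Timp2*, *Adamts5* and *Mmp24* higher, *Mmp9* and *Mmp14* lower), a share of 20% beside 33.2% of all genes (22.9% higher, 10.3% lower). In single stages, without a test, 7 genes were past 2-fold lower in iHBs (28%, background 8.99%), namely *Adamts1*, *Adamts2*, *Adamts9*, *Adamts10*, *Adamts12*, *Mmp2* and *Timp3*, and *Timp2* was past 2-fold higher (background 5.6%). In iHPs 6 were past 2-fold lower in both libraries (24%, background 8.26%), namely *Adamts2*, *Adamts10*, *Adamts12*, *Mmp8*, *Mmp9* and *Timp3*, and again *Timp2* higher (background 4.64%). In iBECs *Mmp7* and *Mmp15* were past 2-fold higher in both libraries (8%, background 4.19%) and 0 were lower (background 1.62%). *Mmp15* averaged 0.85 RPKM in the 6 other libraries and was tested only through the labelled iBEC pair, and without it 1 of 24 genes (4.17%) was past 2-fold higher. 8 genes were lower in both iHP libraries and higher in both iBEC libraries (32%, background 14.4%), namely *Mmp2*, *Mmp7*, *Mmp10*, *Mmp15*, *Mmp17*, *Mmp19*, *Mmp27* and *Adamts10*, or 7 of 24 (29.2%) without *Mmp15*. Both shares include *Mmp10*, which averaged 0.861 RPKM in controls and passed the filter only through the labelled libraries. Some of these genes were barely above the iBEC control in 1 library. The log2 difference was 0.007 for *Mmp27* in replicate 1, and in replicate 2 0.094 for *Mmp19*, 0.112 for *Mmp17* and 0.230 for *Adamts10*. The median over all genes in iBECs was 0.25, a shift that the background share carries too.

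**Figure D5:**
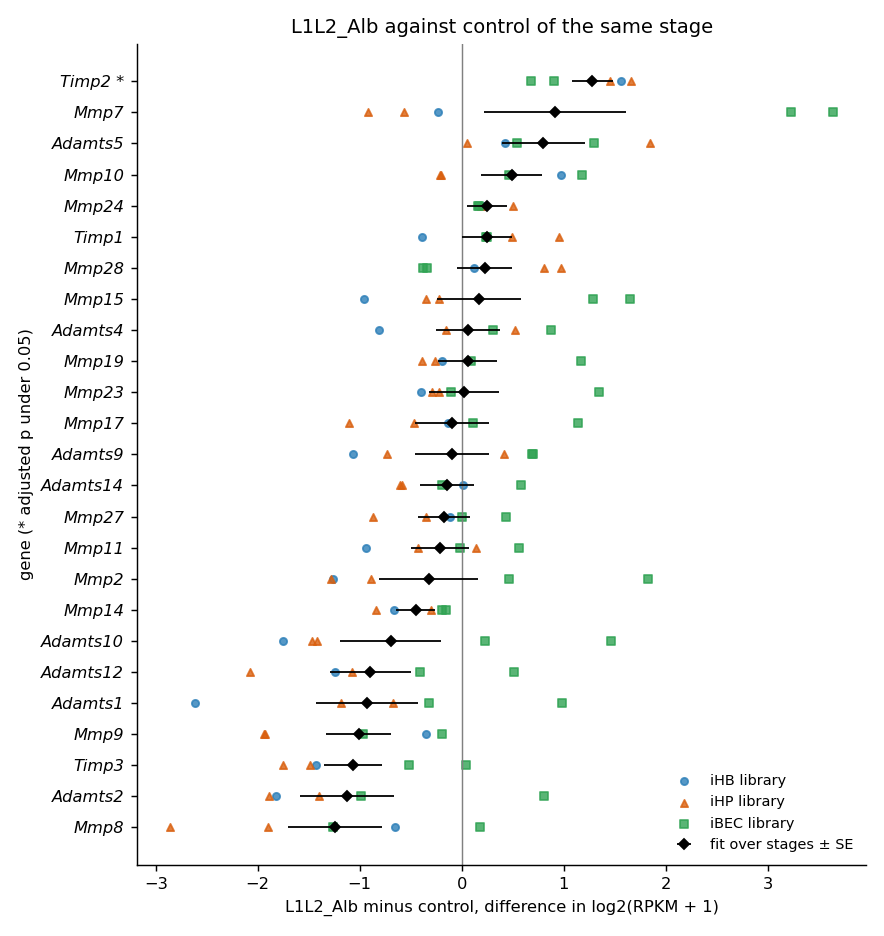
Difference in log2(RPKM + 1) between each library labelled L1L2_Alb and the control of its stage for the 25 tested genes (blue circles iHB, orange triangles iHP, green squares iBEC), with the estimate across stages and its standard error in black. The 5 *Timp2* points all lie above 0, and the green squares lie to the right of the other points for, among others, *Adamts1*, *Adamts2*, *Adamts9*, *Adamts10*, *Adamts12*, *Mmp7*, *Mmp15* and *Mmp2*.

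Between stages, with the genotypes together, 2 of the 25 genes were called higher in iBECs than in iHBs (8%, background 2.94% higher and 5.72% in all), *Timp1* as given above and *Mmp7* (log2 fold change 3.75, SE 0.868, adjusted p = 0.0448 from limma). In control libraries alone *Mmp7* went from 0.880 to 4.28 RPKM. 5 were called higher in iBECs than in iHPs (20%, background 2.45% higher and 4.12% in all), with *Mmp9* at 2.08 (SE 0.352, adjusted p = 0.0203 from limma), *Mmp7* at 3.42 (adjusted p = 0.0489 from limma), *Adamts4* at 1.66 (adjusted p = 0.0401 from limma), *Mmp19* at 1.43 (adjusted p = 0.0491 from limma) and *Mmp27* at 1.27 (adjusted p = 0.0474 from limma). None was called lower in either comparison by limma (background 2.78% and 1.67%), and between iHPs and iHBs no gene of the table was called (background 0%). These 5 calls were not kept with fewer libraries. Without iHP replicate 1 none was called (adjusted p of 0.0923 for *Mmp9* and of 0.17 for *Mmp7* from limma). The estimates changed little there (1.92 for *Mmp9* and 3.21 for *Mmp7*), and calls over all genes fell from 553 to 156. Without iBEC replicate 2 none of the 5 was called either (adjusted p of 0.0665 for *Mmp9* and of 0.151 for *Mmp7* from limma). The call of *Mmp7* between iBECs and iHBs was lost without iHP replicate 1 (adjusted p = 0.0756 from limma), iBEC replicate 1 (0.103) or iBEC replicate 2 (0.0981), while that of *Timp1* was kept in 13 of 13 alternatives.

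Of 40 other genes of matrix proteolysis listed beside these families, 37 were tested, and in the labelled libraries 3 passed the test as higher (8.11%, background 6.2%) and 4 as lower (10.8%, background 3.37%). This list and the markers were chosen with earlier results of these data known, so their shares describe the listed genes only. In the plasminogen system, which activates several MMPs, *Plaur*, the urokinase receptor, rose (1.38, adjusted p = 0.019 from limma), while *Plg*, plasminogen (-2.55, adjusted p = 0.00411 from limma), and *Serpinf2*, the plasmin inhibitor (-1.79, adjusted p = 0.00515 from limma), fell. *A2m*, a plasma inhibitor that traps proteases of all classes, fell too and had the lowest estimate of the list, with 2983 RPKM in the iBEC control and 107 and 239 RPKM in the labelled pair (-3.92 across stages, adjusted p = 0.000605 from limma, 5 of 5 below the control). *Plg*, *Serpinf2* and *A2m* are products of hepatocytes, and 4 of 6 hepatocyte markers were also called lower (66.7%, background 3.37%), among them *Alb* (-1.71, adjusted p = 0.0337 from limma). *Cps1* was lower without a call (-2.96, adjusted p = 0.0827 from limma), and *Apoa1* had a higher estimate (0.65, adjusted p = 0.35 from limma). The part of hepatocyte differentiation in *Plg*, *Serpinf2* and *A2m* was not tested. *Adam9*, a membrane sheddase (1.07, adjusted p = 0.0485 from limma), and *Adamtsl4*, an ADAMTS-like protein without protease domain (1.36, adjusted p = 0.00654 from limma), rose. Of the 9 substrates tested, 6 had an unadjusted p under 0.05 (66.7%, background 26.3%), with a median estimate of -1.02 over the 9, and *Fn1*, fibronectin, fell (-1.54, adjusted p = 0.01 from limma).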

How the data were processed

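RNA of 8 libraries was sequenced (Illumina TruSeq v2), 3 of controls and 5 labelled L1L2_Alb. The authors deposited 1 table of 23471 rows with 1 value per gene and library, taken here as RPKM, because values of short RNA genes rose in whole-read steps. Each value is thus scaled by gene length and library size only, so a few highly expressed genes can shift all others. The submitters' processing notes name Bowtie 0.12.2 and mm8, and counting and annotation are not given in the sources used here. 4 rows of 2 repeated symbols were left out. Depth and whole reads were recovered from the steps (within 0.01 of a whole number, for 39 of 46 members), floors were 3 reads per library, and both cover counting error only.

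Members were all symbols of the *Mmp*, *Adamts* and *Timp* families. Those averaging 1 RPKM or more are named, and the others where a library reached 1 RPKM. Members and lists were chosen with earlier results of these data known. The 13421 genes averaging 1 RPKM or more were fitted on log2(RPKM + 1) in R 4.3.3 with limma 3.58.1, using lmFit and a trended eBayes, for genotype and stage (4 residual degrees of freedom). Tests were two-sided and adjusted by Benjamini-Hochberg over all genes at 0.05. Fold changes on this scale understate those of low genes. A genotype effect differing between stages was tested by the F test on the 6 conditions (2 residual degrees of freedom), and single stages, with 1 control each, have no test. The procedure was tested on simulated data. Alternatives were another pseudocount, scaling, filter, threshold or variance model, averaged libraries, a replicate block, and leaving out a library or a stage. Promoters are of RefSeq (GRCm38.p6), a later build than mm8, and were matched by symbol. Python 3.11.15, pandas 2.3.3, numpy 2.4.6 and matplotlib 3.10.9 were used.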

Additional observations from a re-analysis of the deposited data

Results flagged for a closer look

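In 9 genes both iHP libraries labelled L1L2_Alb lay on one side of their control and both iBEC libraries on the other. 8 of the 25 tested genes were lower in iHPs and higher in iBECs (32%, background 14.4%), or 7 of 24 (29.2%) without *Mmp15*. Both shares include *Mmp10*, which passed the filter only through the labelled libraries. The reverse order, that of *Mmp28*, was not counted over all genes. The value given is the mean log2 difference in iBECs minus that in iHPs. It was 4.18 for *Mmp7* (-0.74 in iHPs, 3.43 in iBECs), 2.29 for *Adamts10* (-1.44, 0.85), 2.23 for *Mmp2* (-1.09, 1.14), 1.76 for *Mmp15* (-0.29, 1.47) and 1.41 for *Mmp17* (-0.79, 0.62). Smaller values were 1.04 for *Mmp10*, 0.96 for *Mmp19* and 0.83 for *Mmp27*, and in *Mmp28* the order was turned, with -1.25 (0.89, -0.36). *Mmp27* (0.007), *Mmp19* (0.094), *Mmp17* (0.112) and *Adamts10* (0.230) each had 1 iBEC library less above its control than the median of 0.25 over all genes. A test of a genotype effect that differs between the 3 stages called 0 genes (limma, adjusted p), while 5 of the 25 tested genes had an unadjusted p under 0.05 (*Mmp7*, *Mmp15*, *Adamts10*, *Adamts1* and *Mmp2*), a share of 20% beside 5.46% of all genes, or 4 of 24 (16.7%) without *Mmp15*, which was tested only through the labelled iBEC pair. Each stage had 1 control library, which every difference of that stage shares, and the pairwise difference between iHPs and iBECs alone was not tested. No condition had 4 or more libraries, so no library was checked for standing apart within its condition.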

How the results depend on the processing

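Of the 25 tested genes, 12 kept the sign of their genotype estimate in every alternative and 13 did not, and none of the 29 turned values was called (smallest adjusted p 0.212 from limma). The number of genes called between genotypes, 1, was 2 with upper-quartile scaling (*Timp2*, *Timp3*), 4 with quantile normalization (*Timp2*, *Timp3*, *Mmp9*, *Mmp14*), 3 at an adjusted p under 0.1, 0 without iHBs or iHPs, 5 without iBECs (*Timp2*, *Timp3*, *Adamts2*, *Adamts10*, *Mmp2*), and 1 to 3 when 1 library was left out, with *Adamts2* and *Timp3* added without iBEC replicate 1. The 2 genes higher in iBECs than in iHBs were 1 with averaged libraries and 1 to 3 with 1 library left out. The 5 higher in iBECs than in iHPs were 1 with a pseudocount of 0.1, 0 with no filter, 3 at a mean of at least 5 RPKM, 3 without trend, 0 with averaged libraries and 0 to 3 with 1 library left out. Genes past 2-fold in iBECs, 2, were 1 at a mean of at least 5 RPKM and 4 at 1.5-fold, and in iHBs, 8, were 14 at 1.5-fold.

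Turned genotype estimates (log2) were, for *Adamts4*, -0.0096 with a pseudocount of 0.1, -0.012 with averaged libraries, -0.0099 without iHPs, -0.24 without iBECs and -0.078 to 0.15 with 1 library left out (-0.053 without iHP replicate 2). For *Mmp23* they were -0.055 with upper-quartile scaling, -0.069 with quantile normalization, -0.014 with averaged libraries, -0.32 without iBECs and -0.26 to 0.18 with 1 library left out, and for *Mmp19* -0.021 with upper-quartile scaling, -0.27 without iBECs and -0.16 to 0.16 with 1 library left out. The lowest of these was without iBEC replicate 1 for *Adamts4*, *Mmp23* and *Mmp19*. *Mmp17* turned to 0.0082 with quantile normalization and 0.30 without iHPs, *Adamts9* to 0.26 without iHBs, *Mmp15* to -0.57 without iBECs, and *Mmp2* to 0.027 without iHBs and 0.11 without iHPs. With 1 library left out they ran from -0.32 to 0.068 (*Mmp17*), from -0.26 to 0.082 (*Adamts9*) and from -0.018 to 0.23 (*Mmp15*), turned without iHP replicate 1, iHP replicate 1 and iBEC replicate 2. Without iHBs *Mmp11* turned to 0.063, without iHPs *Adamts14* to 0.12, *Mmp27* to 0.077, *Mmp28* to -0.15 and *Timp1* to -0.027, and without iBECs *Mmp7* to -0.53. The cause was not tested.

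Replicate numbers were shared only by the iHP and iBEC libraries labelled L1L2_Alb, whose deviations were uncorrelated (-0.02 over 13421 genes). This cannot decide whether libraries of the same number are paired, since other variation within each stage could hide a shared origin. The main fit used no pairing. With the number as a replicate block, 1 gene was called between genotypes, 1 between iBECs and iHBs (*Mmp7* at an adjusted p of 0.0749 from limma) and 1 between iBECs and iHPs. Depth limits what can be said of the genes at a few reads, such as *Mmp20* and *Mmp21*.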
